A study of Capra hircus with 27 samples.

Results

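The comparison described here was that of skeletal muscle from goats (Capra hircus) kept at 2000 m with that from goats kept at 600 m, by RNA sequencing of total RNA. It rested on 6 of the 27 libraries of the series, chosen by their labels alone, and on the genes whose mean FPKM over these 6 libraries was above 0.5. FPKM is a fragment count scaled to transcript length and to the size of the library. That filter left 11790 of 22131 listed genes, or 53.3%, and 5846 genes were listed at 0 in all 6 libraries.

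The series holds heart, lung and skeletal muscle of goats from 3 altitudes, with 3 libraries for each tissue and altitude, and asks how expression differs between animals of low and high altitude. The 600 m goats came from Ya'an in Sichuan, the 2000 m goats from Zhaotong in Yunnan and the 3000 m goats from A'ba, and all were about 3 years old. The labels give no breed, genotype or treatment and do not name the muscle that was sampled. Altitude coincides with the population in these data. Altitude, place, population and any difference in library processing between the altitudes cannot be told apart. The labels do not say that the replicates are separate animals. The study describes 3 unrelated adult females per population, but the 2000 m goats were not part of it. The p-values therefore measure the spread between these samples, which may be technical.

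Skeletal muscle is made of long multinucleate fibres that differ in their contractile proteins and in how far they draw on oxidative or glycolytic energy supply. It also holds capillaries, nerve, connective tissue and fat, whose RNA enters a bulk sample together with that of the fibres. Muscle is a large consumer of oxygen during work, and animals at altitude breathe air with a lower oxygen pressure.

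The deposited values name genes by identifiers that could not be paired with symbols here, and no function is therefore given for any gene. The tissue label was checked on the values in place of marker genes. Over 10943 genes, each of the 6 libraries correlated with muscle libraries at r = 0.902 to 0.992 across genes, with heart libraries at 0.808 to 0.881 and with lung libraries at 0.599 to 0.693. Genes are not independent replicates, and these values serve as a description.

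The 600 m replicates 1 and 2 were near-identical. Above 50 FPKM, their log2 ratios had a robust SD of 0.0849 over genes, against 0.269 to 0.777 in the other 14 pairs of the 6 libraries. Their FPKM were averaged and counted as 1 sample, which left 2 samples at 600 m and 3 at 2000 m. The share of all FPKM taken by the 10 most abundant genes was 41.5%, 36.2% and 25.6% in the 600 m libraries and 25.7 to 28.2% in the 2000 m libraries. Between 51.9% and 53.5% of listed genes were above 0.5 FPKM in each library.

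In skeletal muscle, 752 genes passed the test between the altitudes, 6.38% of those tested (limma on log2(FPKM + 1), Benjamini-Hochberg adjusted p at most 0.05). Of these, 246 were higher at 2000 m (2.09% of tested genes) and 506 were lower (4.29%). Of the 752, 638 changed at least 2-fold, 140 at least 4-fold and 39 at least 8-fold on that scale. Among the 39 changes of at least 8-fold, 29 were falls and 10 were rises. The median size of the change was 1.35 on the log2 scale for the genes that rose and 1.33 for those that fell. In bulk tissue, fewer cells of a type and less RNA per cell cannot be told apart.

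**Figure D1:**
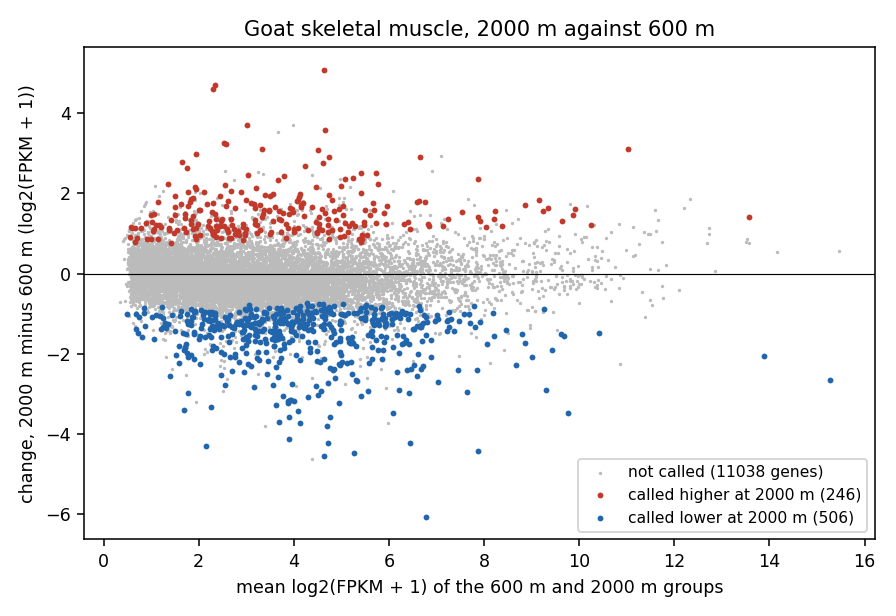
The vertical axis is the change between altitudes (2000 m minus 600 m, on log2(FPKM + 1)) and the horizontal axis the mean level of the 2 groups, with 1 point per tested gene. The 506 falls (blue) reach -6.06 and the 246 rises (red) reach 5.08, and both directions occur at low and at high levels.

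The balance between rises and falls depended on the scaling. Over all tested genes the median change was -0.13, and 60.1% of changes were negative. Under median-of-ratios scaling or quantile normalization of the muscle libraries the median over all genes was -0.02. Quantile normalization gave 317 rises and 327 falls, so that 49.2% of the calls were rises, against 32.7% with the values as deposited. Median-of-ratios scaling gave 257 rises and 403 falls, so that 38.9% of the calls were rises. The numbers of rises and falls with the values as deposited include the general shift of -0.13, which was not removed. How much of their imbalance goes with that shift was not tested. No called gene took the opposite sign in any alternative. That outcome was nearly fixed in advance, so it is no test of direction. The smallest called change was 0.74, and the libraries of the compared altitudes did not overlap in 751 of the 752 genes.

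The 3 libraries of one altitude did not overlap with the 3 of the other in 751 of the 752 genes. Over all tested genes this held for 1758 genes that were higher at 2000 m (14.9%) and 3109 that were lower (26.4%), so most non-overlapping genes did not pass the test. An unadjusted p under 0.05 was found for 3252 genes. The averaged 600 m sample and 600 m replicate 3 differed by a median of 0.30 on the log2 scale over all tested genes and of 0.47 over the called genes. The pairs of 2000 m samples differed by 0.31 and 0.26. Replicate 3 of 600 m lay farther from the 2000 m samples than the averaged sample in 593 of the 752 called genes (78.9%), against 66.2% of all tested genes.

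The number of calls rested on single samples. Without 600 m replicate 3, with the averaged 600 m sample alone against 2000 m, 75 genes were called, of which 7 rose and 68 fell. Without 2000 m replicate 1, 2 or 3 the numbers were 157, 73 and 72, and without the averaged 600 m sample 1023. In the fits with 1 sample at 600 m, that sample was assumed to vary like those of the other groups. A total of 35 genes, 6 that rose and 29 that fell, passed in all 5 of these fits.

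**Figure D2:**
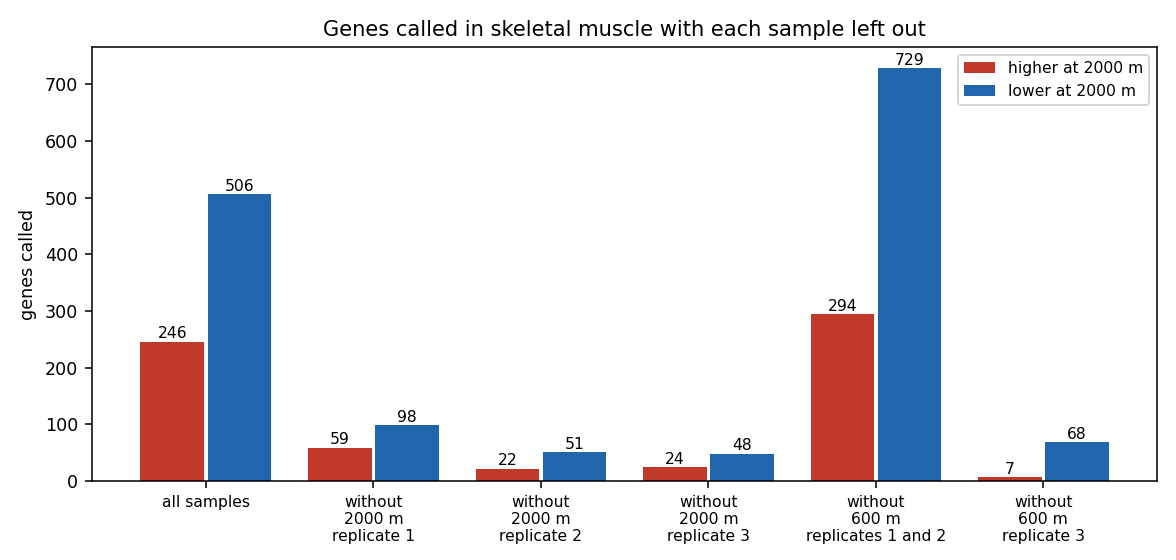
Bars give the number of genes called higher (red) and lower (blue) at 2000 m with all samples and with each sample left out in turn; the averaged 600 m replicates 1 and 2 count as 1 sample. Falls outnumber rises in every fit, from 506 against 246 with all samples to 68 against 7 without 600 m replicate 3.

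The share of genes called grew with the level up to 500 FPKM. It was 1.59% of the 1071 genes with a mean of 0.5 to 1 FPKM, 3.53% from 1 to 5 FPKM, 7.65% from 5 to 50 FPKM and 13.2% of the 1208 genes from 50 to 500 FPKM. In that last class 125 genes fell and 34 rose, and among the 203 genes above 500 FPKM (12.3%) 15 fell and 10 rose. The pseudocount of 1 shrinks the changes of low genes, so the classes are not equally open to a call. The 3 series of identifiers in the files had like shares, with 6.31% of 5400, 6.25% of 5568 and 7.66% of 822 genes.

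With the pseudocount of 1, the largest fall was that of GOAT_ENSBTAP00000016020; with 0.1, a gene listed at 0 in all 2000 m libraries came before it. It had 1817, 1491 and 481 FPKM in the 600 m libraries and 13.2, 22.4 and 6.14 FPKM in the 2000 m libraries. The lowest 600 m library was far above the highest 2000 m library. The change was -6.06 on log2(FPKM + 1) (SE 0.75, limma adjusted p = 0.00624), and the gene was called in all 13 alternatives, with adjusted p from 0.000478 to 0.041. The 3000 m muscle libraries had 629, 165 and 129 FPKM, all above the 2000 m libraries, without a call between these groups (limma adjusted p = 0.17).

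The gene with the second largest fall had 115, 122 and 119 FPKM at 600 m and 6.91, 1.93 and 4.88 FPKM at 2000 m (log2 change -4.54, SE 0.48, limma adjusted p = 0.00385). The levels at 600 m were close to one another, and all 3 at 2000 m were lower. The gene ranked 4 had 839, 828 and 1402 FPKM at 600 m and 42.6, 50.1 and 56.9 FPKM at 2000 m, with a change of -4.42 (SE 0.37) and the smallest adjusted p of the 12 largest falls (0.00169, limma). The gene ranked 11 had 69.4, 71.3 and 29.3 FPKM at 600 m and 2.54, 2.74 and 2.48 FPKM at 2000 m (-3.70, SE 0.35, limma adjusted p = 0.00248). In this gene the 600 m level varied while that at 2000 m hardly did.

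The 12 largest falls ranged from -6.06 to -3.57, with limma adjusted p from 0.00169 to 0.0327, and 4 of them were called with each sample left out in turn. In 1 of them all 2000 m libraries were listed at 0, so that its fitted change is no fold. Their 600 m replicates did not always lie together. The gene ranked 8 had 20.2, 17.4 and 196 FPKM at 600 m and 2.49, 2.98 and 2.27 FPKM at 2000 m, so that replicate 3 was far above the others. The gene ranked 10 had the opposite order, with 167, 156 and 23.4 FPKM at 600 m and 3.39, 3.55 and 4.56 FPKM at 2000 m.

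With the pseudocount of 1, the largest rise was that of GOAT_ENSP00000374859; with 0.1, 2 genes listed at 0 in all 600 m libraries came before it. It had 13.3, 21.0 and 0 FPKM in the 600 m libraries and 166, 67.2 and 265 FPKM in the 2000 m libraries. The groups did not overlap, but the 2000 m libraries spread widely and 600 m replicate 3 was listed at 0. The change was 5.08 (SE 1.09, limma adjusted p = 0.0332), and the call was lost in 6 of 13 alternatives (adjusted p 0.00574 to 0.211). The 3000 m muscle libraries had 97.0, 158 and 459 FPKM.

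The 12 largest rises ranged from 2.92 to 5.08, with limma adjusted p from 0.0078 to 0.0499, and none of them was called with each sample left out in turn. Of these genes, 2 were listed at 0 in all 600 m libraries, so that their fitted change is no fold. The gene ranked 9 was abundant, and each 2000 m library was above all 600 m libraries, with 1009, 1015 and 495 FPKM at 600 m and 5664, 5182 and 7595 FPKM at 2000 m (3.10, SE 0.40, limma adjusted p = 0.0078). Others were low and spread widely at 2000 m, such as the gene ranked 4, with 2.86, 3.25 and 0.241 FPKM at 600 m and 34.5, 8.87 and 70.2 FPKM at 2000 m (3.70, SE 0.91, limma adjusted p = 0.045). The genes ranked 1, 3, 4, 7, 10 and 11 had higher mean levels in lung than in muscle at both altitudes.

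**Figure D3:**
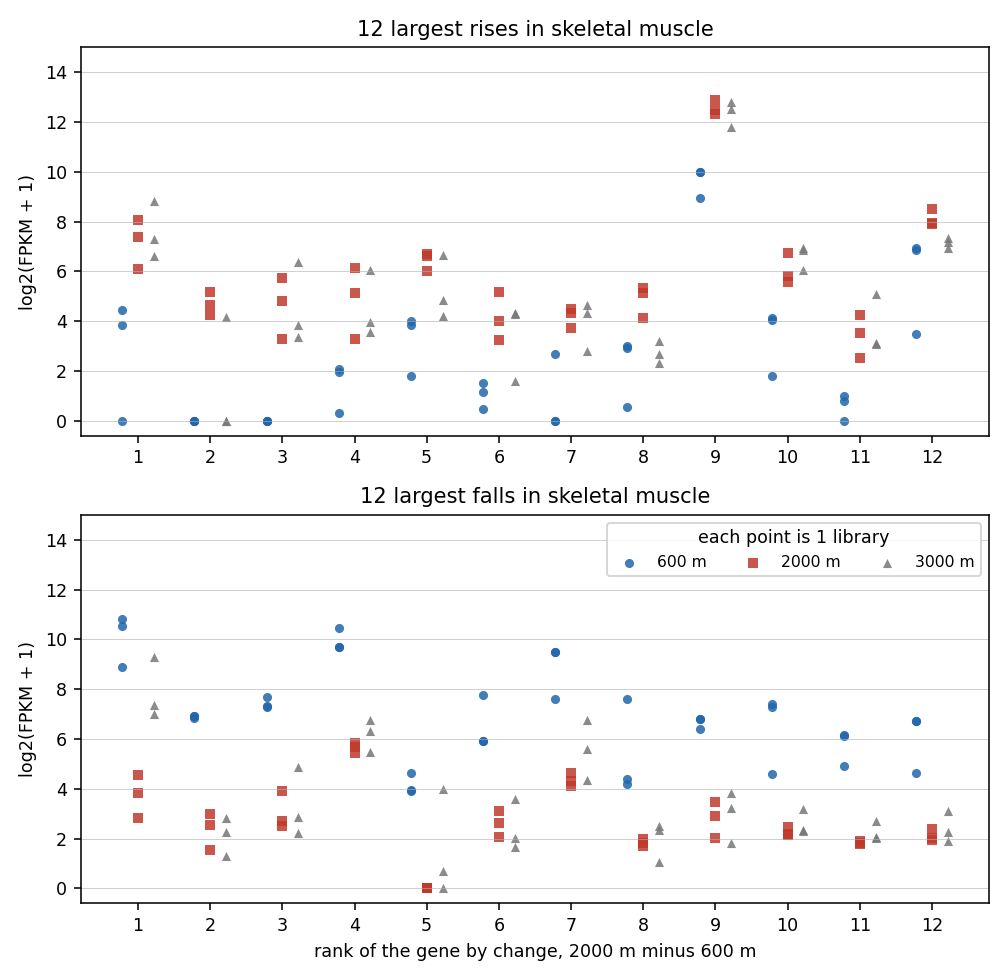
Each point is the log2(FPKM + 1) of 1 gene in 1 muscle library, for the 12 largest rises (upper panel) and falls (lower panel), by rank and altitude. The 600 m (blue) and 2000 m (red) libraries separate in each of these 24 genes; the 3000 m libraries are shown in grey.

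A few genes were listed at 0 in one group, which can be a failed estimate, and no fold is given for them. Of tested genes, 4 were listed at 0 in all 600 m libraries and at 1 FPKM or more in all 2000 m libraries, and 2 of these were called. One had 24.4, 17.9 and 35.2 FPKM at 2000 m and the other 51.8, 8.86 and 26.9 FPKM. In the opposite direction 3 genes were listed at 0 in all 2000 m libraries, and all 3 were called. One of them had 9.13, 8.19 and 10.5 FPKM at 600 m and was listed at 0 in all 2000 m and 3000 m muscle libraries (limma adjusted p = 5.28e-05). With all 2000 m and 3000 m values of that gene at 0, only its 600 m samples showed any spread. Its p-value is therefore not comparable with those of other genes. The genes listed at 0 passed the FPKM filter through the other group alone, and were chosen after their values were seen.

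GOAT_ENSBTAP00000015883 was the most abundant gene in the 600 m libraries and fell. It had 196714, 135940 and 59967 FPKM at 600 m and 19388, 19589 and 10372 FPKM at 2000 m. Replicates 1 and 2 of 600 m were far above replicate 3, and the 2000 m libraries were all lower. The change was -2.66 (SE 0.48, limma adjusted p = 0.0239), a call lost in 4 of 13 alternatives (adjusted p 0.00559 to 0.12). The 3000 m libraries had 38260, 33923 and 35314 FPKM. Because FPKM are relative, the level of a gene that takes such a share of a library bears on all other values in it.

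The changes of the 4 most abundant falls ranged from -3.48 to -1.47. The second had 36296, 33750 and 26568 FPKM at 600 m and 8395, 5675 and 8550 FPKM at 2000 m (-2.04, SE 0.40, limma adjusted p = 0.0273). The groups did not overlap. The third had 1588, 1652 and 3229 FPKM at 600 m and 707, 804 and 984 FPKM at 2000 m (-1.47, SE 0.36, limma adjusted p = 0.045), and its call was lost in 8 of 13 alternatives. The fourth had 3062, 2978 and 2767 FPKM at 600 m and 403, 172 and 249 FPKM at 2000 m (-3.48, SE 0.79, limma adjusted p = 0.0377). The 600 m libraries of this last gene lay within a narrow band.

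The most abundant gene that rose was GOAT_ENSP00000325239. It had 9627, 10198 and 5537 FPKM at 600 m and 21160, 18123 and 20095 FPKM at 2000 m. The 2000 m libraries lay close together and above all 600 m libraries. The change was 1.41 (SE 0.34, limma adjusted p = 0.0411), and the call was lost in 8 of 13 alternatives (adjusted p 0.0195 to 0.365). The third most abundant gene that rose had 942, 961 and 655 FPKM at 600 m and 1945, 1799 and 1793 FPKM at 2000 m (1.22, SE 0.29, limma adjusted p = 0.0423).

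The tested genes were then grouped by tissue pattern in the 3000 m libraries, which were not among the samples compared but entered the same fit for its variance. This grouping was chosen after values were seen, and it bears on the counts, since choosing genes that are high in muscle at 3000 m can favour genes that are higher there than at 600 m. In 291 genes the muscle level at 3000 m was at least 4-fold above both heart and lung. Of these genes, 44 rose and 9 fell at 2000 m, so that 18.2% were called against 6.38% of all tested genes, and their median change was 0.55 against -0.13 over all genes. In a further 436 genes, muscle and heart were each at least 4-fold above lung. There 31 rose and 8 fell (8.94%), with a median change of 0.39. Among the 2590 genes with heart or lung at least 4-fold above muscle, 36 rose and 102 fell (5.33%), with a median of -0.09. The remaining 8473 genes had 135 rises and 387 falls (6.16%) and a median of -0.18.

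**Figure D4:**
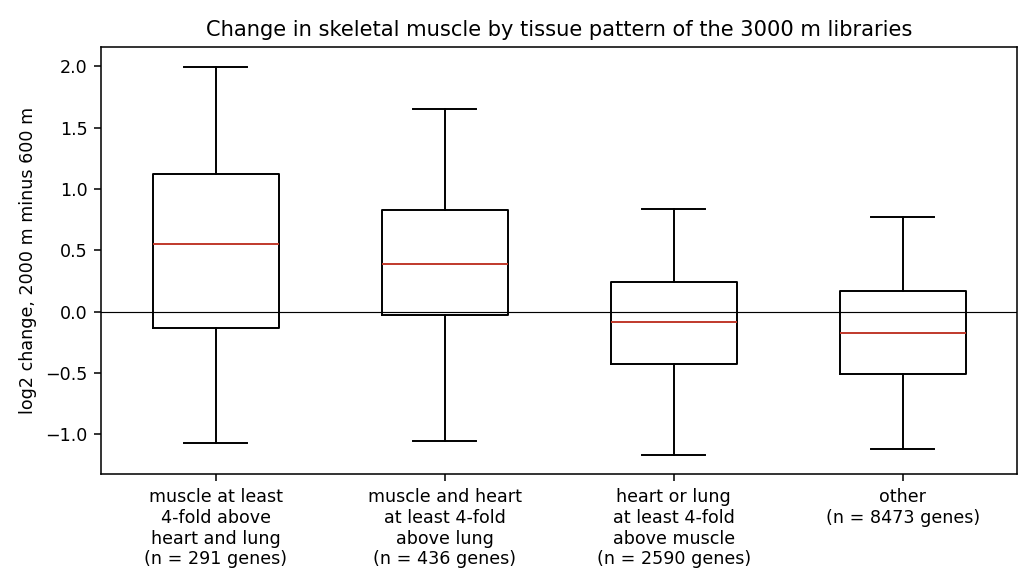
Boxes give the quartiles and median (red line) of the log2 change of genes grouped by their tissue pattern at 3000 m, with whiskers from the 5th to the 95th percentile of genes. The median is 0.55 for the 291 genes highest in muscle and 0.39 for the 436 genes high in muscle and heart, while the other groups have medians of -0.09 and -0.18; with groups set on the 600 m libraries the first medians are 0.13 and 0.31.

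Grouping the genes by the 600 m libraries instead, which can favour the opposite direction, gave other counts. Of 338 genes with muscle at least 4-fold above heart and lung at 600 m, 32 rose and 31 fell (18.6%), with a median change of 0.13. Of 340 genes with muscle and heart each at least 4-fold above lung at 600 m, 28 rose and 9 fell (10.9%), with a median of 0.31. In the 234 genes that were highest in muscle at both 600 m and 3000 m, 32 rose and 7 fell (16.7%), with a median of 0.46. Among the genes highest in muscle, rises and falls were thus about even when the 600 m libraries chose the genes. Over all tested genes there were 246 rises and 506 falls, with a median change of -0.13.

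The 291 genes highest in muscle at 3000 m took 15.8%, 16.8% and 13.0% of all FPKM at 600 m and 25.0%, 26.3% and 29.7% at 2000 m. The 3000 m libraries had 20.8%, 22.8% and 24.8%. With the most abundant gene left out of the totals, the shares were 20.4%, 20.3% and 14.3% at 600 m and 25.6%, 27.0% and 30.2% at 2000 m, without overlap. The medians of these genes and of the 436 stayed above 0 under all 13 alternatives, from 0.36 to 0.73 and from 0.34 to 0.51. Each alternative kept the groups chosen at 3000 m, so none of them tests the effect of that choice. Without 600 m replicate 3, 1 of the 291 genes rose and 4 fell (1.72%), and of the 436 genes none rose and 7 fell (1.61%), beside 0.636% of all tested genes.

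Single genes of the group highest in muscle showed both directions. The fourth most abundant rise of the group had 689, 637 and 481 FPKM at 600 m and 1729, 1538 and 1427 FPKM at 2000 m (1.46, SE 0.34, limma adjusted p = 0.0395). The third most abundant fall of the group had 508, 554 and 528 FPKM at 600 m and 81.3, 102 and 117 FPKM at 2000 m (-2.41, SE 0.35, limma adjusted p = 0.0135). In both genes the libraries of each altitude lay close together. Genes of this group moved in both directions, with 44 rises and 9 falls from all samples and 1 rise and 4 falls without 600 m replicate 3.

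The 3000 m muscle libraries were set beside both groups. The genes that rose had median log2(FPKM + 1) levels of 2.57 at 600 m, 4.27 at 2000 m and 3.80 at 3000 m. The genes that fell had 4.84, 3.34 and 3.58. In the direct comparison of 3000 m with 2000 m muscle, limma called 1 of 11790 genes (0.00848%), and 1043 genes (8.85%) had an unadjusted p under 0.05. None of the 752 genes was called there, while 165 of them (21.9%) had an unadjusted p under 0.05. Both comparisons use the 2000 m libraries, so the genes were chosen partly on values that enter the second. The single gene called between 3000 m and 2000 m was not called here. It had 2734, 2254 and 3605 FPKM at 600 m, 3453, 1270 and 2347 FPKM at 2000 m, and 0, 1.38 and 0 FPKM at 3000 m.

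Heart and lung of the same 2 altitudes were compared with muscle gene by gene, over genes that passed the FPKM filter in muscle and in the other tissue. Each tissue was fitted on its own, and the differences between tissues in 1 fit over all of them. In heart, 2658 of 11403 genes were called between 2000 m and 600 m (23.3%). Without 2000 m heart replicates 1, 2 and 3 these were 1460, 1442 and 1629, and without 600 m heart replicate 3 they were 1558. Of the 709 genes called in muscle and tested in heart, 620 (87.4%) had the same sign there, against 62.6% of all genes. Calls of the same sign in both tissues numbered 281, which was 39.6% of the muscle calls and 10.6% of the heart calls. The changes were smaller in heart, with medians of 0.65 for the genes that rose in muscle and -0.48 for those that fell, against 1.34 and -1.33 in muscle. Those genes were chosen for their change in muscle.

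The difference between the muscle and the heart change was itself tested, and 724 genes (6.35%) passed, or 865 with the 600 m muscle replicates 1 and 2 kept separate. In 617 of them the muscle change was the lower one and in 107 the higher. Among the genes called in muscle the difference passed in 197 (27.8%), though the muscle values enter both tests. The 724 became 107 without 600 m muscle replicate 3, 379 and 460 without 2000 m muscle replicates 1 and 2, and 1146 without the averaged 600 m sample. Opposite calls in the 2 tissues were found for 4 genes, and the difference passed in all 4. One of these, chosen after its values were seen, had 41.2, 37.8 and 105 FPKM in muscle at 600 m and 5.40, 5.79 and 10.9 FPKM at 2000 m. In heart it had 0.764, 0.615 and 0.606 FPKM at 600 m and 2.02, 3.15 and 3.17 FPKM at 2000 m.

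In lung, 919 of 11391 genes were called (8.07%). Of the 701 genes called in muscle and tested there, 617 (88.0%) had the same sign, against 69.0% of all genes, and 182 were called with the same sign. The lung calls were 8 to 35 without any single lung library other than 600 m replicate 1, and 1774 without that one. The difference between the muscle and the lung change passed for 254 genes (2.23%), with muscle the lower in 159 and the higher in 95. It passed for 94 genes without 600 m muscle replicate 3, 113 without 2000 m muscle replicate 2 and 673 without the averaged 600 m sample. One gene rose in muscle and fell in lung with both calls. It had 16.9, 19.3 and 13.4 FPKM in muscle at 600 m and 106, 75.8 and 76.2 FPKM at 2000 m, and in lung 2.55, 3.18 and 10.6 FPKM at 600 m and 0.413, 0.684 and 0.448 FPKM at 2000 m.

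**Figure D5:**
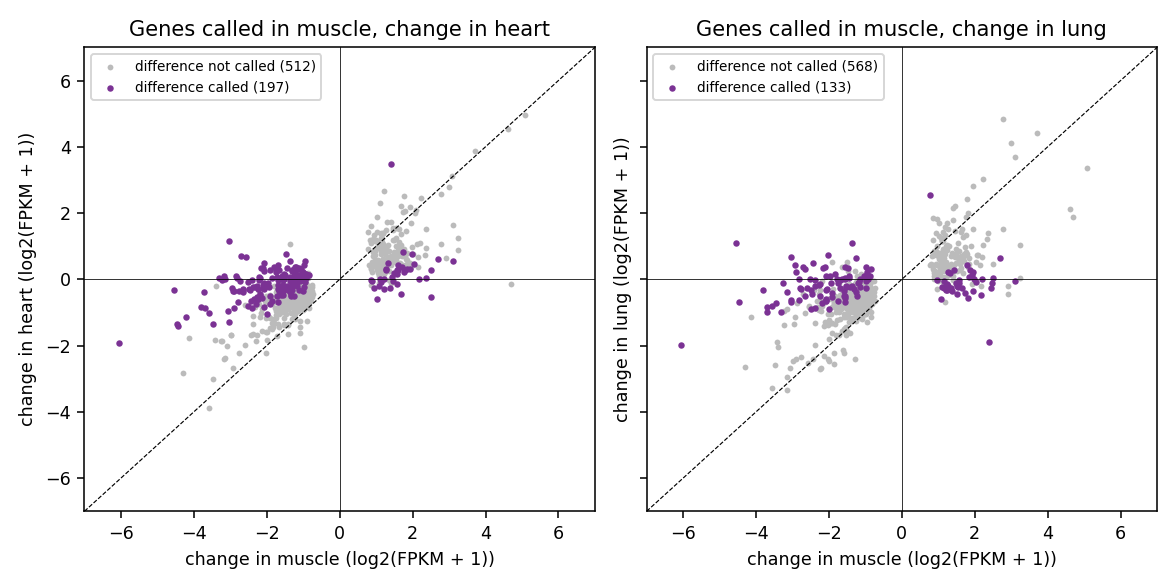
For the genes called in muscle, the change in heart (left) or lung (right) is plotted against that in muscle, on log2(FPKM + 1), with 1 point per gene and equal change on the dashed line. Most points have the same sign in both tissues (620 of 709 for heart, 617 of 701 for lung), and many lie nearer to 0 in heart and lung; purple points are the 197 and 133 genes whose difference passed the test.

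Of the 11790 genes tested in muscle, 118 were called in a single direction in all 3 tissues, 35 upward and 83 downward. Calls made up 6.38% of tested genes in muscle, 23.3% in heart and 8.07% in lung. The lung calls, on which the 118 depend, were far fewer without most single lung libraries. In contrast, 89 of the 752 genes called in muscle differed in their change from both heart and lung, 16 of them higher and 73 lower in muscle. Over all genes these differences passed in 6.35% and 2.23%, and the muscle values enter each of these tests. GOAT_ENSBTAP00000016020 was of both kinds, since it fell in all 3 tissues but most in muscle. Its change was -1.93 in heart (limma adjusted p = 0.0259) and -1.98 in lung (limma adjusted p = 0.0399).

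The other genes named by identifier were as follows. For GOAT_ENSBTAP00000015883 the changes in heart and lung were -0.39 and -0.51 (limma adjusted p = 0.21 and 0.426), against -2.66 in muscle. GOAT_ENSP00000325239 was listed at 0 in all heart libraries at 600 m and averaged 10.8 FPKM at 2000 m (SD 4.79, n = 3), far below its level in muscle, and this rise was called (limma adjusted p = 0.00156). In lung it averaged 0.344 FPKM at 600 m and 3.63 FPKM at 2000 m (log2 change 1.79, limma adjusted p = 0.0309), also far below its level in muscle. This gene was called upward in all 3 tissues, in heart and lung from values at or near 0. GOAT_ENSP00000374859 rose by 4.96 in heart (limma adjusted p = 0.0131), and its change in lung was 3.35 (limma adjusted p = 0.13). Its level was far higher in lung, with means of 1476 FPKM at 600 m (SD 2240) and 6230 FPKM at 2000 m (SD 4570). The means in muscle were 8.59 and 166 FPKM.

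Of the 12 largest falls in muscle, 11 could be tested in heart and 9 in lung. The same sign was found in 11 and 8 of these, beside 62.6% and 69.0% of all genes, and a call in 6 and 2, beside 23.3% and 8.07%. A difference from the muscle change was called in 9 and 7, beside 6.35% and 2.23%; the genes were picked for a large muscle change, which enters that difference. Of the 12 largest rises, 11 and 10 could be tested. The same sign was found in 10 and 8, a call in 6 and 1, and a difference in 1 and 1. The SE of the change was 0.40 to 1.09 for the rises and 0.35 to 0.91 for the falls.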

How the data were processed

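Total RNA of goat heart, lung and skeletal muscle was sequenced from strand-specific libraries. Per the labels, the authors used TopHat2 2.0.11 and Cufflinks 2.2.1. The study's methods give the goat build CHIR_1.0 for the 600 m and 3000 m animals; how the 2000 m libraries were handled is not given in the sources used here. The deposited values are log2(FPKM + 1) per gene and library, in 1 table, and were turned back into FPKM for averaging and filtering. Absolute depth is unknown, so no counting intervals are given. Relative depth read from the lowest values differed by 0.947 to 1.06 within the 600 m and 0.856 to 1.15 within the 2000 m libraries, and could not be set between the altitudes. The share of genes whose lowest values lay on a common ratio averaged 35.7% in pairs within 600 m and 27.7% within 2000 m. In pairs between the altitudes it averaged 7.59% (6.08% to 9.81%). Whether the libraries of the compared altitudes were processed alike was not tested.

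Samples were grouped by altitude and tissue from the labels. The FPKM of 600 m muscle replicates 1 and 2 were averaged. Genes that averaged more than 0.5 FPKM in the 6 libraries were fitted with limma 3.58.1 in R 4.3.3 (trended variances, 8 muscle samples of 3 altitudes, contrast 2000 m minus 600 m), with Benjamini-Hochberg adjustment at 0.05. A fold change on log2(FPKM + 1) understates the change of low genes. Heart and lung were fitted separately in the same way, and the difference of their change from that in muscle was tested in 1 limma fit of 26 samples in 9 groups. The study's own test needs files not used here. The script was tested on simulated data.

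Named genes were the 12 largest changes and the 4 most abundant called genes in each direction, 31 in all; 2 identifiers per direction are printed. Other genes given by values were chosen after these were seen, from the tissue groups, the genes listed at 0 and the opposite calls. None of the identifiers matched the gene table at hand (0 of 22131), so the pathway and cell type lists that had been planned could not be used, and neither sequences nor coordinates are given. The genes, groups and lists were chosen with earlier results of these data known. Alternatives covered scaling, pseudocount, low-value filter, samples in the fit, treatment of the near-identical pair, a replicate block and leaving out each sample.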

Additional observations from a re-analysis of the deposited data

Results flagged for a closer look

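The change between 2000 m and 600 m differed between muscle and heart in 724 genes and between muscle and lung in 254 genes, by a test of the difference itself (limma, adjusted p at most 0.05). Genes named by identifier with such a difference were the following. GOAT_ENSBTAP00000016020 fell more in muscle than in heart by -4.13 on the log2 scale (SE 0.95, limma adjusted p = 0.0178) and more than in lung by -4.09 (SE 0.95, limma adjusted p = 0.0311). GOAT_ENSBTAP00000015883 had a muscle change lower by -2.27 than that in heart (SE 0.54, limma adjusted p = 0.021) and by -2.15 than that in lung (SE 0.54, limma adjusted p = 0.0402). GOAT_ENSP00000325239 had a muscle minus heart difference of -2.05 (SE 0.46, limma adjusted p = 0.0165), where its heart libraries at 600 m were all listed at 0. The groups of 2 or 3 samples were too small for a check of single outlying samples.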

How the results depend on the processing

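The count of 752 calls moved most when single samples were left out, without the filter and without the averaging. Without a filter on low values 85 of 16857 genes were called (23 higher, 62 lower, 27.1% higher, 5 of the 31 named). With 600 m replicates 1 and 2 as separate samples 1582 were called (558 higher, 1024 lower), and with only 600 m and 2000 m in the fit 488 (310 lower, 36.5% higher). Quantile normalization gave 327 lower calls and 49.2% higher, and median-of-ratios scaling 38.9% higher. Leaving out each sample in turn gave 72 to 1023 calls, 7 to 294 higher and 48 to 729 lower, 9.3% to 37.6% higher, with 7 to 25 of the named genes called. The muscle minus heart difference then ranged from 107 to 1146 genes and the muscle minus lung difference from 94 to 673, while calls in heart ranged from 1442 to 3131 and in lung from 8 to 1774. Quantile normalization gave 393 genes for the muscle minus heart difference, and lung calls were 568 with only 600 m and 2000 m in the fit. A total of 32 genes, 5 higher and 27 lower, were called under every alternative. The cause of these changes was not tested, other than that fewer samples or more genes entered some fits.

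Muscle samples with the same replicate number did not deviate together between 600 m and 2000 m (r = -0.077, 0.039 and -0.010), nor did all same-numbered muscle and heart samples (r = 0.2, -0.072 and 0.316 at 600 m; 0.084, 0.017 and -0.278 at 2000 m) or muscle and lung samples (0.203, -0.076 and 0.295; -0.131, 0.046 and -0.404). Within an altitude, muscle samples and heart or lung samples of different numbers had r from -0.336 (2000 m muscle 1 and lung 2) to 0.389 (2000 m muscle 1 and lung 3). The numbers are therefore not taken to pair the samples. In heart and lung alike, 2000 m muscle 1 had its highest r with replicate 3 (0.183 and 0.389). The 2000 m muscle 3 had its highest with replicate 2 (0.322 and 0.363), while 2000 m muscle 2 had none above 0.06. At 600 m, muscle 1 and 2 had theirs with replicate 1 (0.2 to 0.272) and muscle 3 with replicate 3. Whether tissues share animals in another order was not tested, and the differences between tissues as reported were tested without pairing. With the replicate block and 600 m replicates separate, 991 genes were called (345 higher, 646 lower), of which 699 were among the 752; a block of altitude and number with all 27 libraries separate gave 1309 genes for the muscle minus heart and 506 for the muscle minus lung difference, against 865 and 349 with the 600 m muscle replicates separate and no block.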

Other observations

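Some identifiers are listed in several copies that share a stem. Of 112 such tested genes 8 rose and 3 fell in muscle at 2000 m (9.82%), against 6.35% of the 11678 others. Reads of near-identical copies can be divided between them, so these values are uncertain. Of the 291 genes highest in muscle at 3000 m, 145 were tested in heart, where 34 rose and 7 fell at 2000 m with a median change of 0.39, beside 23.3% called and a median of 0.11 over all genes. Of the 436 genes high in muscle and heart, 427 were tested there, with 47 rises, 33 falls and a median of 0.08, against 0.39 in muscle. Genes called in muscle that passed the FPKM filter in neither heart nor lung numbered 25.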
